A study of Mus musculus with 23 samples.

Results

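Of 18193 mouse genes measured on an Affymetrix array, 48 (0.264%) were higher in every germ cell fraction sorted from Spo11-/- testes than in any wild-type sample of the same fraction. The values were the deposited GCRMA intensities, used here as log2(intensity + 1), with the brightest probe set standing for its gene. A gene was taken when its 3 Spo11-/- arrays each lay at least 0.5 above the highest wild-type array of their fraction and at log2 5 or more. The genes were thus chosen by the early-fraction values of both genotypes, so the differences between the genotypes are given below as a description with no test.

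The Spo11-/- samples were spermatogonia, pre-leptotene cells and leptotene/zygotene cells, sorted on Hoechst 33342 from testes of males 10 to 16 weeks old, with 1 array for each fraction. Cells of 2 collections were combined before RNA was prepared, so there was no replicate of a Spo11-/- fraction. The design text gives 4 and 3 mice, and it is not clear which number belongs to which collection or fraction. The wild-type samples came from C57BL6xDBA2J F1 males of the same age. They held the same fractions on 4, 3 and 3 arrays, and early pachytene (1 array), mid-pachytene (2), late pachytene (1), diplotene (2) and round spermatid (4) fractions, giving 23 arrays in all. The strain of the Spo11-/- mice is not given in the sources used here, and the submitters describe the wild-type collection with another series. Strain, collection and genotype therefore cannot be told apart, and the labels do not say whether replicates came from separate animals.

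SPO11 makes the DNA breaks that start meiotic recombination. Spermatocytes without it fail to pair and synapse their chromosomes and die in the first meiotic prophase, so the adult mutant testis lacks later spermatocytes and spermatids. Spermatogonia divide by mitosis, pre-leptotene cells copy their DNA before meiosis, and leptotene and zygotene cells build the chromosome axes on which homologues pair.

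The probe set for Spo11 itself read 4.30, 4.80 and 5.21 on the Spo11-/- arrays of spermatogonia, pre-leptotene and leptotene/zygotene cells. The wild-type arrays read 4.60 to 6.69, 4.61 to 7.03 and 7.42 to 8.95 in the same fractions, so the mutant array lay inside the wild-type range in pre-leptotene cells and below it in the others. Whether this probe set lies in the deleted part of Spo11 is not known here, so it checks the labels only in part. Late prophase genes were lower in the mutant fractions but partly measured, with medians of 3.84, 3.67 and 4.60 over 18 genes, against 6.97 to 8.33, 6.16 to 8.02 and 8.97 to 10.47 in wild type. Spermatid genes were near background, with medians of 3.21, 2.95 and 3.15 in Spo11-/-. Prm1, which encodes a protamine of the condensing sperm head, stood at 3.35, 3.17 and 3.29 on the Spo11-/- arrays, against 13.45 to 15.45 on the 10 wild-type arrays of these fractions. In a limma fit of the shift shared by the 3 fractions, 195 of 11980 genes were higher in Spo11-/- (1.63%) and 1203 were lower (10.0%), at an adjusted p below 0.05 and a log2 change of at least 1. The median over all genes was -0.05. The 3 mutant arrays, 1 for each fraction, stand in as replicates in this fit. Its p-values and standard errors, here and below, therefore do not measure the spread between mutant mice. Of 26 spermatid genes 25 were lower, as were 14 of 18 late prophase genes, and 44 of the 48 genes described here were among the higher ones, which their choice largely fixes. In these sorted bulk samples, fewer cells of a type and less RNA per cell cannot be told apart.

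RNA of other cell types also differed between the libraries. The Spo11-/- pre-leptotene array held T cell RNA: the median of 15 T cell markers was 6.65 there, against 2.79 to 3.01 on the other Spo11-/- arrays and 2.64 to 4.12 on the wild-type arrays. Cd3d, a subunit of the T cell receptor complex, was at 10.42 on that array, and 13 of the 15 markers reached log2 4. Other lists were high on it too. The log2 of the summed intensity was 13.38 there for macrophage and leukocyte markers, against 8.42 to 10.67 in wild-type pre-leptotene cells, and 15.13 for antigen presentation genes, against 11.63 to 12.71. The median of stromal markers was 6.98 there, against 3.77 to 5.54 in wild type, and that of immediate-early genes 10.29, against 6.77 to 8.44. Spermatogonia ran the other way, with a macrophage and leukocyte median of 2.78 in Spo11-/- against 4.43 to 7.46 in wild type, and a stromal median of 3.26 in Spo11-/- against 5.79 to 9.31 in wild type. The median of 17 Sertoli cell markers was 5.30, 6.73 and 6.72 on the Spo11-/- arrays of spermatogonia, pre-leptotene and leptotene/zygotene cells. On the wild-type arrays of the same fractions it was 4.91 to 5.69, 4.72 to 5.24 and 5.52 to 5.95. Among the defining Sertoli markers, Sox9 and Amh stayed below log2 4 on all 13 arrays, and Clu and Aard were measured. The part of RNA of these other cells in the differences below was not tested.

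The choice of genes required a difference in all 3 fractions, so the medians below describe its size only. The median difference between the Spo11-/- array and the wild-type mean was 1.16 in spermatogonia, 1.37 in pre-leptotene cells and 1.25 in leptotene/zygotene cells. Over the 8504 genes at log2 5 or more on all 3 Spo11-/- arrays the same medians were 0.14, -0.09 and 0.05. The largest difference fell in spermatogonia for 11 genes, in pre-leptotene cells for 23 and in leptotene/zygotene cells for 14. The distance above the highest wild-type array was 2 or more for 0, 7 and 3 genes in these fractions, so the widest distances came from the array that held T cell RNA and from the leptotene/zygotene one. Taken alone, the fractions had 548, 1597 and 841 genes past the same limits. With no limit on level, 855 genes lay at least 0.5 below every wild-type array in all 3. Of these, 575 had every wild-type array of the 3 fractions at log2 5 or more. The highest wild-type spermatogonia array was often replicate 3, without which 104 genes would have been taken. The same limits on spermatogonia and leptotene/zygotene cells alone, leaving out the fraction whose mutant array held T cell RNA, took 173 genes. Leaving out a fraction can only add genes, so the 48 were bound to be among them.

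At the limit itself, Hccs, Cst9 and Gtpbp10 were taken with smallest distances of 0.52, 0.52 and 0.51. Ints6l (0.4994), Ttyh1 (0.4968) and Ormdl1 (0.4919) lay just outside.

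**Figure D1:**
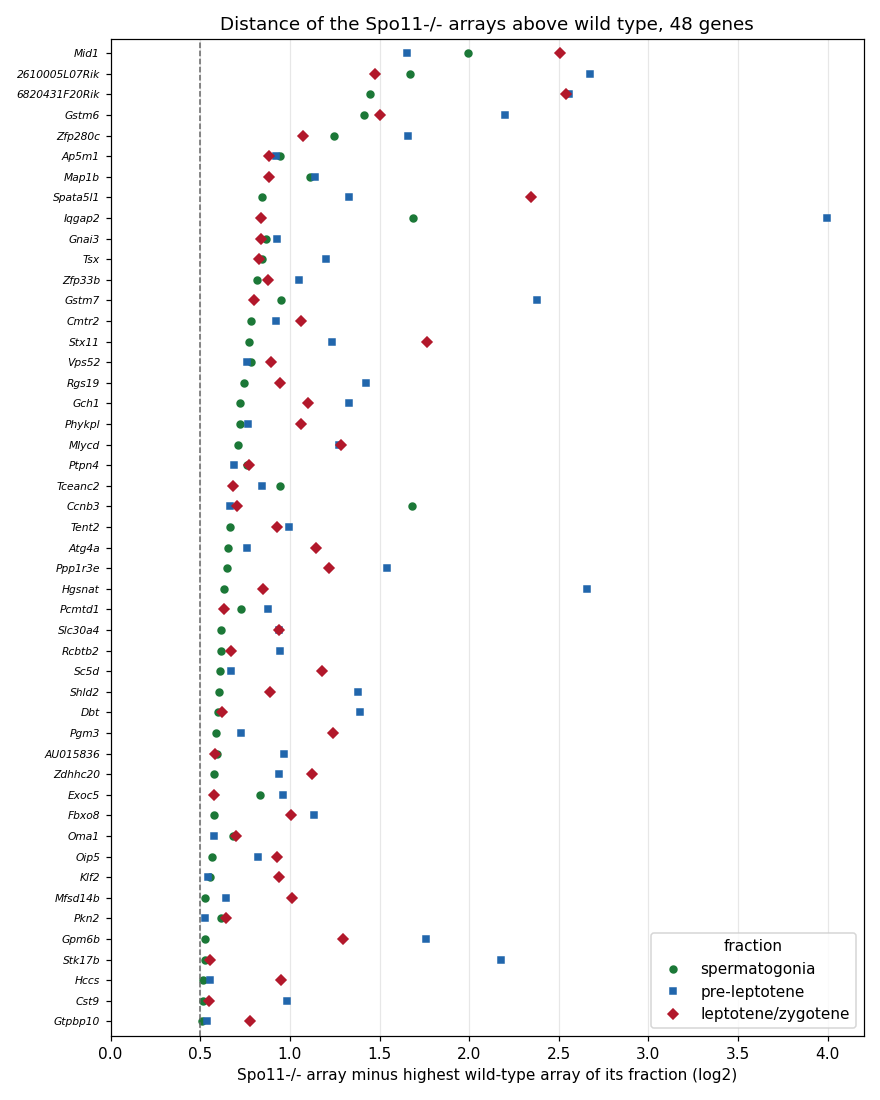
Each row is 1 of the 48 genes and each point the distance, in log2 units, of the Spo11-/- array above the highest wild-type array of its fraction (green circles for spermatogonia, blue squares for pre-leptotene and red diamonds for leptotene/zygotene cells). The dashed line marks the limit of 0.5. Mid1 leads with a smallest distance of 1.65, and the widest single distance is that of Iqgap2 in pre-leptotene cells, at 4.00.

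Among the 48 genes, 9 act in the cytoskeleton and cell signalling, with a median difference of 1.33 averaged over the fractions. Mid1 had the widest smallest distance of the 48, 1.65. It encodes a ubiquitin ligase bound to microtubules, and in laboratory mice the gene spans the boundary between the X chromosome and the pseudoautosomal region (chrX:169685199-169990798, GRCm38.p6). On the spermatogonia arrays it stood at 8.84 in Spo11-/- against 5.44, 5.78, 6.84 and 6.09 in wild type. Pre-leptotene cells gave 8.84 in Spo11-/- against 5.61, 7.18 and 6.48 in wild type. Leptotene/zygotene cells gave 8.41 in Spo11-/- against 5.62, 4.85 and 5.91 in wild type. The 3 mutant arrays were close to each other and above all 20 wild-type arrays, and both other Mid1 probe sets were below log2 4.

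Map1b, a microtubule-associated protein best known from growing axons, followed with 8.83, 9.03 and 8.73 on the Spo11-/- arrays of the 3 fractions. The wild-type arrays held 5.63 to 7.71 in spermatogonia, 6.76 to 7.89 in pre-leptotene cells and 7.17 to 7.85 in leptotene/zygotene cells. Iqgap2, a scaffold that binds actin and small GTPases, varied most between the mutant fractions, with 6.85, 8.61 and 5.11. Its wild-type levels were 5.16, 3.68, 4.76 and 4.61 in spermatogonia, 4.61, 4.06 and 3.81 in pre-leptotene cells, and 4.27, 3.77 and 4.24 in leptotene/zygotene cells. The difference of 4.45 in pre-leptotene cells was the largest of any of the 48 genes in any fraction, on the array with T cell RNA. Stk17b, a serine/threonine kinase abundant in lymphocytes, peaked on the same array, at 12.03, against 9.31 to 9.85 in wild type. In spermatogonia and leptotene/zygotene cells Stk17b exceeded the highest wild-type array only by 0.52 and 0.55. A second Stk17b probe set, nearly as bright, differed from the wild-type mean by 1.01, 3.46 and -0.30 in the 3 fractions.

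Gnai3, the alpha subunit of an inhibitory G protein, was among the most abundant genes of the set and differed by a similar amount everywhere. Its Spo11-/- arrays held 11.96, 12.02 and 11.23. The wild-type arrays held 10.55, 10.70, 11.09 and 10.70 in spermatogonia, 10.57, 10.96 and 11.09 in pre-leptotene cells, and 10.39, 10.29 and 10.40 in leptotene/zygotene cells. Rgs19, which speeds GTP hydrolysis on inhibitory alpha subunits, read 8.49, 8.76 and 8.13 in Spo11-/-, against 6.68 to 7.75, 6.97 to 7.33 and 6.72 to 7.19 in wild type. It lies 8.71 Mb from Spo11 on chromosome 2 and was the only one of the 48 within 20 Mb of it. The phosphatase gene Ptpn4 and the kinase gene Pkn2 had averaged differences of 1.12 and 0.77, and Pkn2 had the smallest average of the 48. Gpm6b, a membrane proteolipid known from neurons, rounded off the group at 5.75, 6.88 and 7.01 in Spo11-/-, with wild-type levels of 4.63 to 5.23, 4.32 to 5.12 and 5.44 to 5.71.

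**Figure D2:**
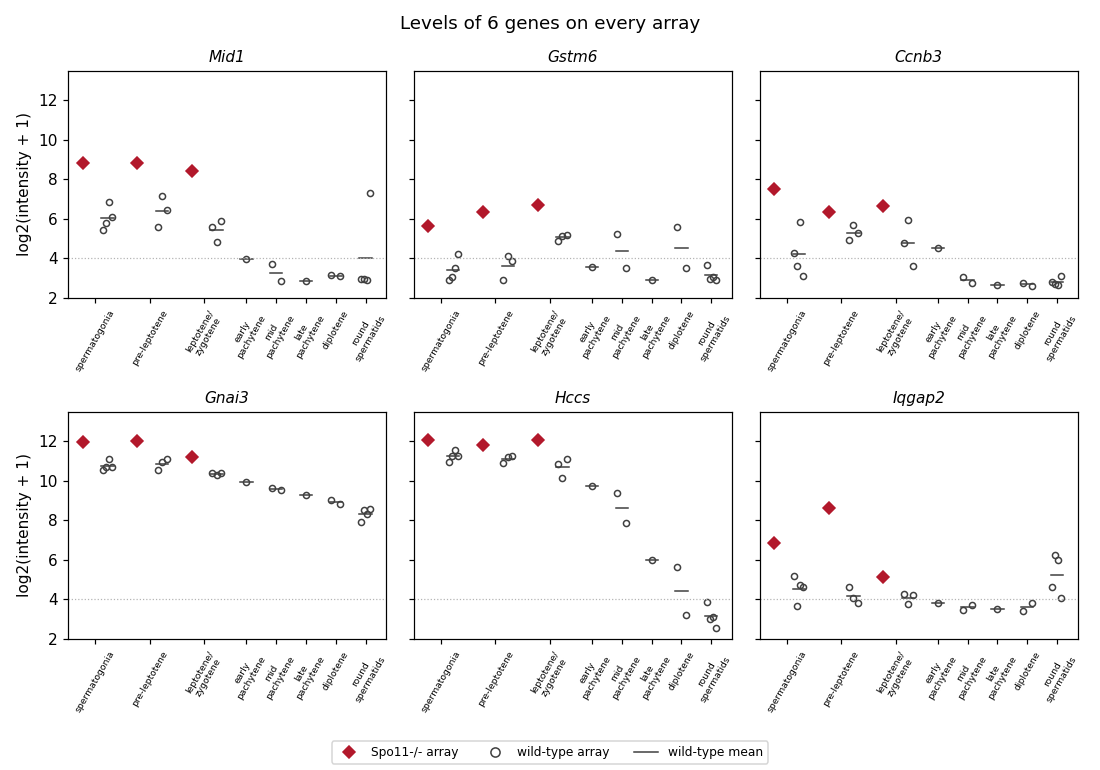
Level of 6 of the genes on every array, as log2(intensity + 1), with the Spo11-/- array (red diamond) left of the wild-type arrays (open circles, bar for their mean) in the 3 early fractions, and the 5 later fractions in wild type only. The dotted line is log2 4. Hccs is high in early cells and at 2.56 to 3.87 in round spermatids, Gnai3 is lowest in round spermatids (7.91 to 8.58), and Mid1 is at 7.32 on 1 of 4 round spermatid arrays and under log2 4 on the other 9 later arrays.

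A further 10 genes belong to membrane traffic, transport or protein breakdown, with a median averaged difference of 1.16. Ap5m1 encodes a subunit of the adaptor complex AP-5 of late endosomes. It measured 8.25 in Spo11-/- spermatogonia against 6.90, 6.29, 7.30 and 7.01 in wild type, and 8.08 in Spo11-/- pre-leptotene cells against 7.16, 6.40 and 6.98 in wild type. Leptotene/zygotene cells gave 7.93 in Spo11-/- against 7.04, 6.31 and 6.66 in wild type. Its head-to-head neighbour Exoc5, a subunit of the exocyst that tethers vesicles to the plasma membrane, measured 8.98, 9.61 and 8.60 in Spo11-/-. The wild-type arrays held 7.73 to 8.15, 8.02 to 8.64 and 7.65 to 8.03 of Exoc5. Stx11, a syntaxin of lymphocyte granule release, read 7.24, 7.63 and 7.15 in Spo11-/-, against at most 6.47, 6.40 and 5.38 in wild type. Hgsnat, a lysosomal enzyme of heparan sulfate breakdown, had the largest averaged difference of the group, 1.79, and its pre-leptotene difference was 2.77 on the array with T cell RNA.

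The zinc transporter gene Slc30a4 was steady across the mutant fractions, at 10.98, 11.01 and 10.84, and its 10 wild-type arrays lay between 9.48 and 10.37. The other members of the group were Vps52 (a tethering complex of the Golgi), Atg4a (a protease of autophagosome formation), Zdhhc20 (a palmitoyltransferase), Mfsd14b (a predicted transporter) and Fbxo8 (an F-box protein). Their averaged differences ran between 1.03 for Atg4a and 1.47 for Fbxo8.

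Metabolic and mitochondrial enzymes made up 12 of the 48 genes, with a median averaged difference of 1.19. Gstm6, a glutathione transferase of the mu class, measured 5.62 in Spo11-/- spermatogonia, against 2.89, 3.07, 3.53 and 4.21 in wild type, where it was near background. Its level was 6.33 in Spo11-/- pre-leptotene cells, against 2.89, 4.13 and 3.88 in wild type. Leptotene/zygotene cells held 6.71 in Spo11-/- against 4.91, 5.13 and 5.21 in wild type. The neighbouring Gstm7 gave 5.98, 7.10 and 6.98 in Spo11-/-, against 3.71 to 5.03, 4.68 to 4.72 and 5.54 to 6.18 in wild type. Genes of this class are similar in sequence, so their probe sets may read more than 1 of them and their separate levels are uncertain.

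In a list of 17 genes of glutathione and redox defence, 15 could be tested in the shared shift, and limma called 0 higher and 0 lower, with 0 at an unadjusted p below 0.05 in either direction. The list's median change was 0.34, against -0.05 over all genes. Gstm5, near Gstm7 on chromosome 3, stood lower in Spo11-/-, at 11.36, 11.40 and 12.22, against 12.36 to 15.17 on the 10 wild-type arrays. Gstm1 stood at 7.93 in Spo11-/- spermatogonia, inside the wild-type range of 7.40 to 10.21, and at 9.62 in Spo11-/- pre-leptotene cells, above the 6.56 to 7.02 of wild type.

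Among the mitochondrial members, Hccs encodes the lyase that attaches haem to cytochrome c. It measured 12.09 in Spo11-/- spermatogonia against 10.94, 11.26, 11.57 and 11.28 in wild type. Pre-leptotene cells gave 11.84 in Spo11-/- against 10.92, 11.20 and 11.28 in wild type, and leptotene/zygotene cells 12.05 in Spo11-/- against 10.84, 10.17 and 11.09 in wild type. The distance was small in the first 2 fractions (0.52 and 0.55) and 0.95 in leptotene/zygotene cells. Its dimmer second probe set also lay above every wild-type array of its fraction. Oma1, a protease of the inner mitochondrial membrane, and Gtpbp10, a GTPase of mitochondrial ribosome assembly, had averaged differences of 1.07 and 0.86.

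Gch1, which makes the first step of tetrahydrobiopterin synthesis, stood at 8.54, 8.63 and 7.64 in Spo11-/-, against 6.57 to 7.82, 6.71 to 7.29 and 6.08 to 6.54 in wild type. Sc5d, a desaturase late in cholesterol synthesis, stood at 9.59, 9.45 and 9.86 in Spo11-/-, against 8.26 to 8.98, 8.44 to 8.78 and 8.41 to 8.68 in wild type. Of the 14 cholesterol synthesis genes tested, 1 was called higher, Sc5d itself, and 1 was called lower (limma), with 3 and 2 at an unadjusted p below 0.05. The list's median change was 0.06, and the choice of genes largely fixes the call of Sc5d. The remaining enzymes and subunits were Dbt (breakdown of branched-chain amino acids), Pgm3 (synthesis of UDP-N-acetylglucosamine), Mlycd (malonyl-CoA decarboxylase), Phykpl (hydroxylysine breakdown) and Ppp1r3e (a glycogen-targeting subunit of protein phosphatase 1). All of these had averaged differences between 1.03 for Phykpl and 1.39 for Ppp1r3e.

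Another 10 genes act in the nucleus, on RNA or in cell division, with the highest group median, 1.37. Ccnb3, the X-linked B-type cyclin that mouse spermatocytes make early in meiotic prophase, had the largest averaged difference among them, 2.09. On the spermatogonia arrays it was at 7.52 in Spo11-/- against 4.28, 3.62, 5.84 and 3.10 in wild type. Pre-leptotene cells held 6.37 in Spo11-/- against 4.92, 5.70 and 5.29 in wild type, and leptotene/zygotene cells 6.67 in Spo11-/- against 4.79, 5.97 and 3.62 in wild type. The wild-type arrays of Ccnb3 were widely spread, and the distance above the highest was 1.68, 0.67 and 0.71. Zfp280c, an X-linked zinc finger gene, was at 5.50, 6.34 and 6.16 in Spo11-/-, against 2.90 to 4.25, 3.74 to 4.68 and 3.70 to 5.09 in wild type.

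Cmtr2 encodes the methyltransferase that completes the second position of the mRNA cap. It stood at 7.20, 7.07 and 6.63 in Spo11-/-, against 4.49 to 6.42, 4.48 to 6.15 and 4.55 to 5.56 in wild type. Spata5l1, an AAA-family ATPase, read 6.81, 6.58 and 7.06 in Spo11-/-, against 4.26 to 5.96, 4.35 to 5.25 and 4.32 to 4.72 in wild type. Zfp33b, another zinc finger gene, was even across the mutant fractions at 6.80, 7.01 and 7.09, with wild-type arrays between 5.08 and 6.21. Klf2, a transcription factor of quiescent lymphocytes and endothelium, was at 10.44, 9.54 and 9.42 in Spo11-/-, with the highest wild-type arrays at 9.89, 9.00 and 8.48.

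Shld2 belongs to the shieldin complex, which limits the resection of DNA breaks. It was dim, at 5.98, 5.82 and 5.28 in Spo11-/-, against 4.11 to 5.37, 3.98 to 4.44 and 4.03 to 4.39 in wild type. Tent2, a cytoplasmic poly(A) polymerase known from oocytes and neurons, was bright, at 10.96, 11.06 and 10.65 in Spo11-/-, against 10.09 to 10.30, 9.72 to 10.06 and 9.11 to 9.73 in wild type. Oip5, part of the complex that loads the centromeric histone, and Tceanc2, related to a transcription elongation factor, had averaged differences of 1.12 and 1.10.

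None of the 48 was in the lists of break formation, axis and synapsis, or strand exchange and crossover genes. In the shared shift, limma called 0 of 4 break formation genes higher and 1 lower, Spo11 itself, and an unadjusted p below 0.05 gave the same counts. It called 0 of 10 axis and synapsis genes and 0 of 14 strand exchange and crossover genes in either direction, with 3 higher and 0 lower, and 2 higher and 1 lower, at an unadjusted p below 0.05. Of 9 meiotic entry genes, 1 was called higher and 0 lower, with 3 and 1 at an unadjusted p below 0.05. The gene called was Ythdc2, an RNA helicase needed to leave the mitotic programme, at 11.17, 10.92 and 10.96 in Spo11-/-. Its wild-type arrays held 8.94 to 11.10, 10.02 to 10.23 and 9.10 to 9.69, a shift of 1.13 ± 0.34 (SE) with a Benjamini-Hochberg adjusted p of 0.0437. Of 16 p53 target genes, 1 was called higher and 2 lower, with 5 and 2 at an unadjusted p below 0.05 (limma). Their median change was 0.45.

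The last 7 genes were Cst9 (testatin, made in fetal Sertoli cells), Tsx (a testis-expressed gene of the X inactivation centre region), the long noncoding RNA AU015836, Rcbtb2, Pcmtd1 and a pair of pseudogenes. The transcribed pseudogenes 2610005L07Rik and 6820431F20Rik, 88.35 kb apart on chromosome 8, had the widest smallest distances after Mid1. 2610005L07Rik was at 10.35, 10.50 and 10.19 in Spo11-/-, against 7.51 to 8.68, 7.35 to 7.83 and 7.71 to 8.72 in wild type. 6820431F20Rik was at 7.32, 7.58 and 8.45 in Spo11-/-, against 5.12 to 5.87, 4.42 to 5.02 and 4.28 to 5.91 in wild type. Of the 7 other probe sets of 2610005L07Rik, 5 also had each Spo11-/- array above every wild-type array of its fraction. Probe sets of such pseudogenes can read related copies, so which copy gave the signal is uncertain. Tsx was at 7.89, 8.49 and 8.58 in Spo11-/-, against 6.39 to 7.05, 6.21 to 7.29 and 7.18 to 7.75 in wild type. Cst9 was at 8.55, 10.01 and 9.85 in Spo11-/-, against 7.50 to 8.03, 7.11 to 9.03 and 8.38 to 9.31 in wild type. Both had their widest distance in pre-leptotene cells, the fraction with the T cell RNA and the highest Sertoli marker sum. AU015836, Rcbtb2 and Pcmtd1 had averaged differences of 1.11, 1.10 and 0.89.

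The genes had 50 further probe sets, in 28 of the 48 genes. All 13 early arrays were below log2 4 for 22 of these probe sets. A further 11 had each Spo11-/- array above every wild-type array of its fraction, 8 had each above the wild-type mean only, 7 were mixed, and 2 had each below the wild-type mean. These last were the dimmer probe set of Vps52, with differences of -0.15, -1.17 and -0.81 from the wild-type mean, and 1 of Stk17b, with -0.61, -0.43 and -0.49. The mixed ones included 1 each of Iqgap2, Ptpn4 and Stk17b, with leptotene/zygotene differences of -0.25, -0.53 and -0.30 from the wild-type mean. The differences of some genes therefore rest on 1 probe set, such as those of Mid1 and Exoc5, whose other probe sets were all below log2 4. With the mean of a gene's probe sets in place of the brightest, 43 genes passed, 21 of them shared with the 48.

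Genes on the X chromosome were 8 of the 48 (16.7%), against 291 of the 8504 genes at the same level (3.43%). They were Mid1, Hccs, Zfp280c, Ccnb3, Tsx, Atg4a, Gpm6b and AU015836. The X-linked genes at that level had median differences between the Spo11-/- array and the wild-type mean of 0.33, 0.28 and 0.42 in the 3 fractions, against 0.14, -0.09 and 0.03 for 8192 autosomal genes. Chromosomes 14 and 8 each held 7 of the 48 (14.6%), where 3.44% and 5.52% of the 8504 genes lie, and chromosomes 6, 7, 12, 15, 16, 18 and 19 held 0. These positions were read after the genes were chosen and carry no test.

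In all, 11 of the 48 had another of them within 1000 kb, and they gave 6 pairs that follow each other in order along a chromosome. Exoc5 (chr14:49011922-49066667) and Ap5m1 (chr14:49066408-49094114) overlap by 260 bases at their 5′ ends on opposite strands. Spata5l1 and Slc30a4 lie 44.76 kb apart on chromosome 2. Gstm7 and Gstm6 lie 6.97 kb apart on chromosome 3, with Gnai3 another 153.63 kb on. Hccs and Mid1 lie 364.82 kb apart near the end of the X chromosome. The neighbours were not all higher. Ampd2, near Gnai3, differed from the wild-type mean by -1.48, -1.38 and -0.44 in spermatogonia, pre-leptotene and leptotene/zygotene cells. Gatm, a gene of creatine synthesis near Spata5l1, was at 8.30 and 8.32 in Spo11-/- pre-leptotene and leptotene/zygotene cells, against 5.78 to 6.09 and 6.15 to 6.96 in wild type. In Spo11-/- spermatogonia Gatm was at 6.60, inside the wild-type range of 5.18 to 6.80.

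Exoc5 and Ap5m1 overlap, whereas Gnat2 and Ampd2, which are not among the 48, lie between Gstm6 and Gnai3. The start regions of Exoc5, Ap5m1, Hccs and Gnai3 are shown as examples from these pairs. Each is the RefSeq window of GRCm38.p6 covering 250 bases before and 50 after 1 annotated transcript start, the first listed for the gene, which for Ap5m1 and Gstm6 is not the outer end of the gene. It is written 5′ to 3′ on the gene's own strand, with matches to CCGGAAG, the core bound by ETS factors, on either strand in capitals. The windows are chr14:49066618-49066917 (minus strand) for Exoc5, chr14:49066299-49066598 (plus strand) for Ap5m1, chrX:169320323-169320622 (minus strand) for Hccs and chr3:108146103-108146402 (minus strand) for Gnai3.
Exoc5: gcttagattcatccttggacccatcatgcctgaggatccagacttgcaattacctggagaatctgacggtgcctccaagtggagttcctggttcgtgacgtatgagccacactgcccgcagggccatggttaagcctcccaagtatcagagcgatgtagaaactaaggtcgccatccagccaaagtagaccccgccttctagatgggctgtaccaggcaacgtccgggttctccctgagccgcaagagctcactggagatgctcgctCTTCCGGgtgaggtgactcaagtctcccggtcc
Ap5m1: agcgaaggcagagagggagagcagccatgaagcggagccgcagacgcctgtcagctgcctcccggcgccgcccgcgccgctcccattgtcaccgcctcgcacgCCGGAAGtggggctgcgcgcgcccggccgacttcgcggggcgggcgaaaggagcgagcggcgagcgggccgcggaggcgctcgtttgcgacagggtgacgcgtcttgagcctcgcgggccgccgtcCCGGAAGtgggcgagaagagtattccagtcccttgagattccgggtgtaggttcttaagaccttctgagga
Hccs: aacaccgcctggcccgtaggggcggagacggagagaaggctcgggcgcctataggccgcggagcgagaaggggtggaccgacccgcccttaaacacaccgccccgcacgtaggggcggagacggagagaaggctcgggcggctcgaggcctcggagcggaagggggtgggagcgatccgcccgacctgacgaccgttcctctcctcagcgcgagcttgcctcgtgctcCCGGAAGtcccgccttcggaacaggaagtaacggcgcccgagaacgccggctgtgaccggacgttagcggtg
Gnai3: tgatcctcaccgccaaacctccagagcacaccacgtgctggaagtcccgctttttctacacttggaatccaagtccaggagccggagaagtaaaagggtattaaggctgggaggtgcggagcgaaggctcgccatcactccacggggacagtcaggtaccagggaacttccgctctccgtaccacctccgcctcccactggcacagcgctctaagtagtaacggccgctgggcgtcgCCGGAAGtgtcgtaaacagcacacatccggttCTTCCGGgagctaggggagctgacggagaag
They hold 1, 2, 1 and 2 matches. Of the 41 genes with a window 14 hold a match, so these windows do not stand for the set. The windows of Exoc5 and Ap5m1 are 19 bases apart. The window of Mid1, chrX:169684949-169685248 on the plus strand, and that of Gstm6, chr3:107953417-107953716 on the minus strand, are given because these genes, pseudogenes apart, had the widest smallest distances and hold 0 matches.
Mid1: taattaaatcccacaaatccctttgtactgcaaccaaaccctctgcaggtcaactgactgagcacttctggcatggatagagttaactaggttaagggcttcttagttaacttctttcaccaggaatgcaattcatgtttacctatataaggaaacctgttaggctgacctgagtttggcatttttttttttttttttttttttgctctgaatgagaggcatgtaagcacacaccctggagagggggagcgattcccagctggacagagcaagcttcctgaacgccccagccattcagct
Gstm6: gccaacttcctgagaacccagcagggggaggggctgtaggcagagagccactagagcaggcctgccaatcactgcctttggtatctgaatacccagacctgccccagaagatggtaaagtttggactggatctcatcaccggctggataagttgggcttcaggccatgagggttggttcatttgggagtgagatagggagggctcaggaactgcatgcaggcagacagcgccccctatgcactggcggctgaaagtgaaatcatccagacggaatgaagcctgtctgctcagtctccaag

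RefSeq windows matched 41 of the 48 genes. At least 1 match to CCGGAAG stood in the windows of 14 of the 41 (34.1%), against 22.1% of 7070 genes at the same level and 9.12% of all 27025 genes with a window. The GC box GGGCGG, bound by SP and KLF factors, stood in 23 of the 41 (56.1%), against 69.6% and 35.9%. For CCAAT the shares were 29.3%, 40.0% and 37.9%, and for TATAAA 9.76%, 5.91% and 14.2%. For GGGTGTG, a core of KLF factors, they were 7.32%, 7.78% and 7.85%. The search covered both strands and gave no test. A match describes letters in the window only.

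The later wild-type fractions entered only the choice of probe set, and they show where else the genes were measured. The early wild-type arrays were used to choose the genes, and they also read spermatid genes such as Prm1 high. The shares below are therefore not independent of the choice of genes. Through the 8 wild-type fractions the mean was highest in an early one for 35 of the 48 genes (72.9%), against 55.4% of the 8504 genes at the same level. Spermatogonia alone accounted for 19 of them (39.6%, against 15.4%). All 4 round spermatid arrays lay below log2 4 for 9 genes (18.8%, against 4.19%). The 3 Spo11-/- arrays stood above all 20 wild-type arrays for 29 of the 48, where 1.26% of the 18193 genes did, which the choice of genes partly fixes.

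**Figure D3:**
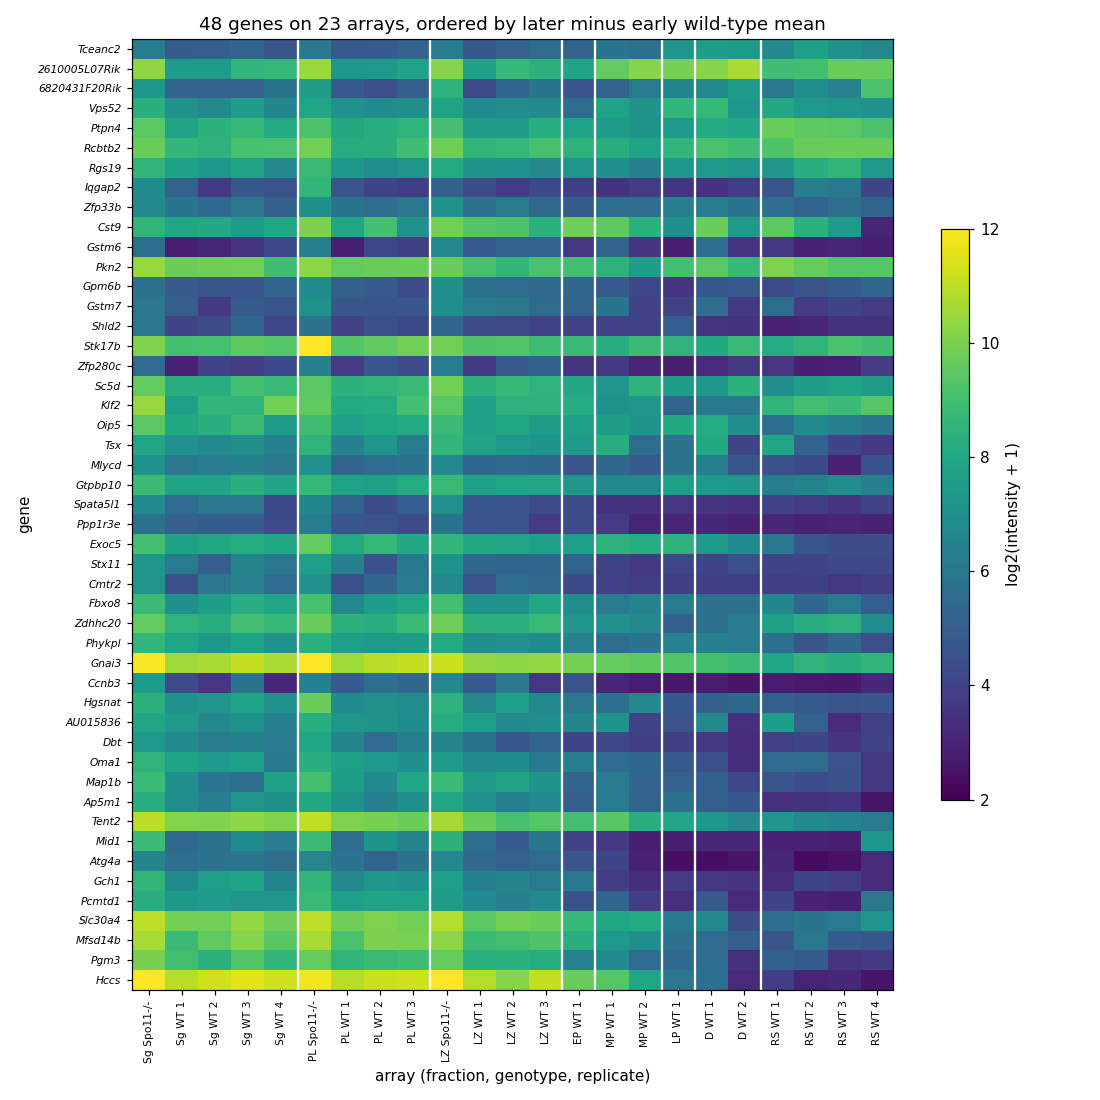
Level of the 48 genes (rows) on the 23 arrays (columns), as log2(intensity + 1) in colour, with the Spo11-/- array left of the wild-type arrays of its fraction (Sg spermatogonia, PL pre-leptotene, LZ leptotene/zygotene, EP, MP and LP early, mid and late pachytene, D diplotene, RS round spermatids; WT wild type). Rows run from genes relatively high in later wild-type cells, led by Tceanc2, to genes low there, ending with Hccs.

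Between diplotene and mid-pachytene, 42 of the 48 genes were bright enough to test in a limma fit over the 10 later arrays. The others, Mid1, Zfp280c, Cmtr2, Ccnb3, Ppp1r3e and Shld2, had reached log2 4 on fewer than 2 of these arrays. In diplotene 1 of the 42 was higher (2.38%) and 4 were lower (9.52%), at a Benjamini-Hochberg adjusted p below 0.05 and a log2 change of at least 1. Of all 12447 genes tested, 7.97% were higher and 11.2% lower, so the share lower was near that of all genes and the share higher below it. The median change was -0.21, against 0.01 over all genes, and 11 of the 42 had an unadjusted p below 0.05.

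Hccs fell furthest. Its level was 5.64 and 3.19 in diplotene, against 9.37 and 7.86 in mid-pachytene, a change of -4.20 ± 0.83 (SE, limma adjusted p = 0.014), and the single late pachytene array held 5.98. The groups did not overlap, but the call was lost without the first mid-pachytene or the second diplotene array. Mfsd14b was at 5.49 and 5.04 in diplotene, against 7.42 and 6.97 in mid-pachytene, a change of -1.93. Tent2 was at 7.31 and 6.61 in diplotene, against 9.40 and 8.22 in mid-pachytene, a change of -1.85, and Klf2 at 6.06 and 6.01 in diplotene, against 7.15 and 7.31 in mid-pachytene, a change of -1.20. Their limma adjusted p-values were 0.0306, 0.043 and 0.0345, and their calls were lost in 5, 5 and 6 of the 8 fits that left out 1 numbered array. Those of Mfsd14b and Klf2 were also lost after quantile normalization, with limma adjusted p-values of 0.0515 and 0.081. Tceanc2 rose, with 7.55 and 7.47 in diplotene against 5.89 and 5.68 in mid-pachytene, a change of 1.72 ± 0.38 (SE, limma adjusted p = 0.0196), and it lost its call without any 1 of these 4 arrays. With any 1 numbered array of the fit left out, 0 to 5 of the 42 were called lower and 0 or 1 higher.

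Between round spermatids and diplotene, 3 of the same 42 genes were higher in round spermatids (7.14%) and 3 were lower (7.14%), where 12% and 9.95% of all genes were. The median change was -0.19, against -0.03 over all genes, and 12 of the 42 had an unadjusted p below 0.05. Klf2 rose most. Its level was 8.55, 8.99, 8.82 and 9.34 in round spermatids, against 6.06 and 6.01 in diplotene, a change of 2.89 ± 0.27 (SE, limma adjusted p = 0.00209). Klf2 was thus lowest in wild-type late pachytene, at 5.20, and diplotene, and high on both sides of them.

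Ptpn4 also rose, with 9.76, 9.50, 9.45 and 9.15 in round spermatids against 8.11 and 7.95 in diplotene, a change of 1.43 ± 0.26 (SE, limma adjusted p = 0.00669). The change was -0.23 with the mean of its probe sets, so it rests on the brighter one. Zdhhc20 rose by 1.87 (limma adjusted p = 0.0178), with 7.69, 8.23, 8.47 and 6.92 in round spermatids against 5.75 and 6.17 in diplotene. Klf2 and Ptpn4 stayed called with each of the 8 numbered arrays left out in turn, and Zdhhc20 was lost without either diplotene array.

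Exoc5 and Ap5m1, the head-to-head pair, both fell. Exoc5 was at 5.95, 4.67, 4.36 and 4.36 in round spermatids, against 7.51 and 6.82 in diplotene, a change of -2.33 ± 0.48 (SE, limma adjusted p = 0.0111). Ap5m1 was at 3.36, 3.46, 3.50 and 2.53 in round spermatids, all below log2 4, against 5.07 and 4.77 in diplotene. Its fitted change was -1.71 ± 0.38 (SE, limma adjusted p = 0.0153), and set against log2 4 the difference was -0.92. Oip5 fell to 5.63, 6.74, 6.34 and 5.91 in round spermatids, against 8.14 and 6.99 in diplotene, a change of -1.41 (limma adjusted p = 0.0445). Exoc5 lost its call without the first diplotene array, Ap5m1 without either diplotene array, and Oip5 in 6 of the 8 fits with an array left out as well as in the blocked fit over replicate numbers (limma adjusted p = 0.103).

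**Figure D4:**
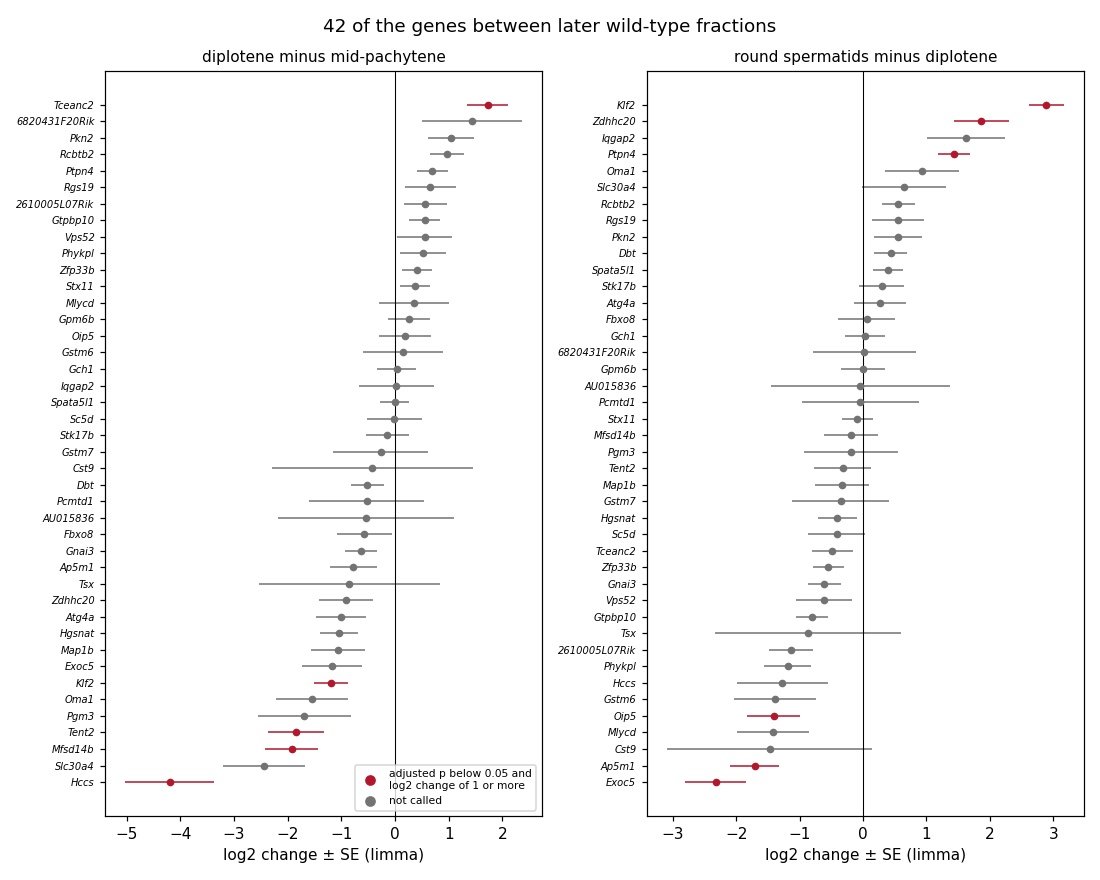
Log2 change with its standard error (limma) of the 42 tested genes, for diplotene minus mid-pachytene on the left and round spermatids minus diplotene on the right, each ordered by the change. Red points passed an adjusted p of 0.05 and a change of at least 1. Hccs (-4.20) and Tceanc2 (1.72) mark the ends on the left, and Klf2 (2.89) and Exoc5 (-2.33) those on the right.

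Cst9, Tsx, AU015836, Gstm6 and Gstm7, 5 of the genes, were picked by no set rule. In wild-type mid-pachytene and diplotene cells, their levels on arrays of the same fraction differed in the order that Sertoli markers did. Most of the 48 genes differed between these arrays in the same order. Tsx was at 8.23 and 5.61 on the mid-pachytene arrays and at 8.08 and 4.06 on the diplotene ones. The summed intensity of the other 16 Sertoli markers, as log2, was 13.34 and 12.02 on the mid-pachytene arrays and 13.21 and 11.07 on the diplotene arrays. On the 4 round spermatid arrays the sum was 13.40, 12.28, 10.98 and 9.58. Tsx kept that order, at 7.88, 5.14, 4.10 and 3.68, and so did Cst9, at 9.48, 8.39, 7.37 and 3.02, whereas AU015836, Gstm6 and Gstm7 did not. In wild-type spermatogonia the sum was 12.23, 12.42, 11.77 and 11.95, and none of the 5 genes had its order.

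Other genes ran the same way, so this order was not particular to the 5. Most of the 48 were higher on the first mid-pachytene and first diplotene arrays, Hccs, Pgm3, Exoc5 and Tent2 among them. Sc5d and 2610005L07Rik were lower on them, and Gpm6b did not follow the order in diplotene. Over 12447 genes, deviations of same-numbered mid-pachytene and diplotene arrays correlated at 0.65. The median of spermatogonial genes was 8.71 and 7.55 on the mid-pachytene arrays, 4.98 and 4.45 on the diplotene arrays and 5.03 on the first and 3.90 on the fourth round spermatid array. None of the 5 genes was called in either late comparison.

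In the early fractions the Sertoli sum was 12.19 in Spo11-/- spermatogonia, inside the wild-type range of 11.77 to 12.42. It was 13.85 in Spo11-/- pre-leptotene cells against 11.55 to 12.94 in wild type, and 13.77 in Spo11-/- leptotene/zygotene cells against 12.74 to 13.32 in wild type. Of 12 Sertoli markers tested in the shared shift, limma called 2 higher, Cst9 and Aard, and 0 lower, with 7 higher and 0 lower at an unadjusted p below 0.05. Their median change was 0.77, against -0.05 over all genes. Cst9, 1 of the 48, enters these counts and this median, and the choice of genes largely fixes its call. Aard, which is not among the 48, changed by 1.42 ± 0.31 (SE, limma adjusted p = 0.00917). The part of Sertoli cell RNA in the 5 genes was not tested.

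**Figure D5:**
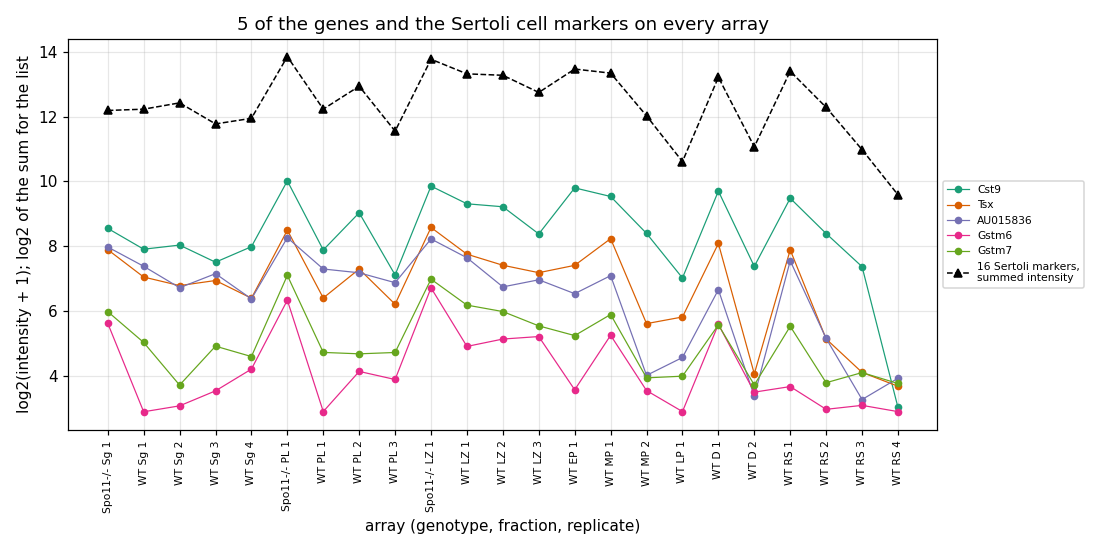
Levels of Cst9, Tsx, AU015836, Gstm6 and Gstm7 as log2(intensity + 1) on each of the 23 arrays, with the log2 of the summed intensity of 16 Sertoli markers (black triangles), Spo11-/- arrays left of the wild-type arrays of their fraction (Sg, PL and LZ the early fractions, EP, MP and LP pachytene, D diplotene, RS round spermatids). Lines only join the points of 1 gene, and the genes shown were picked by no set rule. The marker sum is highest on the Spo11-/- pre-leptotene array (13.85) and lowest on the fourth round spermatid array (9.58), where Cst9 is at 3.02.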

How the data were processed

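RNA of sorted germ cell fractions, labelled with biotin as cRNA made with oligo-dT primers, was measured on 23 Affymetrix arrays, per the labels' protocols. The authors deposited 1 linear intensity for each of 45037 probe sets, made with GCRMA per the submitters' processing notes, which gives no version. As a method, GCRMA corrects for background binding and normalizes arrays together, which can shrink differences between samples of unlike make-up. The number of arrays limits the precision.

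Intensities were used as log2(value + 1). GEO's platform annotation named 1 gene for 34945 probe sets, several for 932 and none listed for 9160, and 34741 were joined to RefSeq (GRCm38.p6) by Entrez identifier. Each gene was read from 1 probe set, the brightest by mean in wild type. The 48 genes and all gene lists were chosen with earlier results of these data known. Named in full were the 12 genes with the widest smallest distance (predicted names apart), list members, called genes, neighbours and, chosen after their values were seen, other genes given for their role.

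Fits used limma 3.58.1 (R 4.3.3) with Benjamini-Hochberg adjustment over all genes at log2 4 or more in at least 2 arrays of the fit. The genotype fit took 13 arrays with fraction means and 1 shift, and the late fit 10 arrays. In the genotype fit, mutant arrays of different fractions stand in as replicates. On simulated data the late fit recovered 71.0% of changes of 3.0 (log2) between diplotene and mid-pachytene and 28.0% of those of 1.5, and 73.0% and 39.0% between round spermatids and diplotene. Tables and plots used Python 3.11.15, pandas 2.3.3, numpy 2.4.6 and matplotlib 3.10.9. Alternatives were quantile normalization, median centring, log2(value + 16), no filter, the mean of probe sets, other limits, other fit settings and single arrays left out.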

Additional observations from a re-analysis of the deposited data

Results flagged for a closer look

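In wild-type fractions with 4 arrays, 1 array stood apart from the other 3 (Dixon's criterion at 95%) for 8 of the 96 gene and fraction combinations tested, 4 in spermatogonia and 4 in round spermatids. Chance alone marks about 1 in 20 such groups. Mid1 was at 7.32 on the fourth round spermatid array, against 2.90 to 2.98 on the others. 6820431F20Rik was at 5.87 on the fourth spermatogonia array, against 5.12 to 5.20. Ap5m1 was at 2.53 on the fourth round spermatid array, against 3.36 to 3.50, and Cmtr2 at 3.60 on the third, against 3.87 to 3.88, both below log2 4. Slc30a4 was at 10.37 and Gtpbp10 at 8.34 on the third spermatogonia array, against 9.84 to 9.91 and 7.83 to 7.86. Rcbtb2 was at 9.24 on the first round spermatid array, against 9.67 to 9.72. Pkn2 was at 8.95 on the fourth spermatogonia array, against 9.71 to 9.86.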

How the results depend on the processing

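The number of genes taken was 48 and moved to 73 after quantile normalization (47 of them shared with the 48), 5 with a distance of 1 and 197 with one of 0.25. It was 48 to 264 with 1 array left out: 104 without the third wild-type spermatogonia array and, in an alternative chosen after seeing the data that drops a fraction, 264, 173 and 104 without the Spo11-/- spermatogonia, pre-leptotene or leptotene/zygotene array. The shared shift called 115 genes higher with log2(value + 16), 104 to 234 higher with 1 array left out (104 without the Spo11-/- leptotene/zygotene array), and 730 to 1254 lower (730 without that array and 795 without the Spo11-/- spermatogonia array). For diplotene minus mid-pachytene, leaving out 1 array gave 124 to 1088 genes higher and 215 to 1570 lower, the lowest without the second diplotene array, with 0 to 1 of the 42 higher and 0 to 5 lower. Of the 42, 2 were lower after quantile normalization or with no filter, and 2 were higher with the mean of probe sets. For round spermatids minus diplotene, leaving out 1 array gave 658 to 1701 genes higher and 354 to 1351 lower, the lowest without the first diplotene array, with 2 to 4 of the 42 higher and 0 to 3 lower. Of the 42, 5 were lower after median centring, 6 lower in a fit over all 20 wild-type arrays, and 1 higher with the mean of probe sets, where Ptpn4 turned to -0.23 (limma adjusted p = 0.581). Scaling alternatives moved the median of all genes by less than 0.1. The cause of these shifts was not tested.

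The replicate numbers of the later fractions are shared labels only. Over 12447 genes, deviations of same-numbered arrays correlated at 0.65 for mid-pachytene and diplotene, and at 0.60 and 0.07 for diplotene and round spermatids. With the number as a replicate block, diplotene minus mid-pachytene called 1537 genes higher and 2355 lower, 3 and 9 of them among the 42, and round spermatids minus diplotene called 6 of the 42 higher. Of the genes named in these comparisons, only Oip5 lost its call under the block, at -1.38 (limma adjusted p = 0.103). No paired analysis was possible for the genotypes because the Spo11-/- arrays carry no number.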
